A study of Mus musculus with 10 samples.

Results

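The 9 genes described here encode proteins of the rod light response downstream of the visual pigment, from transducin to the membrane current, together with rod arrestin. Sums, shares and orders of the members cover these 9 genes alone. They were chosen by gene symbol, and all 9 were found among the 25905 genes of the table. Total RNA was sequenced from the left and the right retina of 5 wild-type C57BL/6J mice, numbered 61, 64, 65, 66 and 68, at postnatal day 34. One eye of each mouse had worn a lens of -20 dioptres, which places the focal plane behind the retina and drives the young eye towards myopia, for 10 days from postnatal day 24, and the other eye had none. The side of each retina is labelled but not which eye wore the lens, so libraries are grouped by side, 5 left and 5 right, and none is named as treated or control. Each library is the whole retina of one eye, so a lower value can mean fewer rods or less RNA per rod, and these cannot be told apart.

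In a rod in the dark, cyclic GMP holds a cation channel open. Light activates the visual pigment, which loads the α subunit of transducin with GTP, and that subunit lifts an inhibitory subunit off the phosphodiesterase PDE6, which then destroys cyclic GMP and lets the channel close. Arrestin binds the activated, phosphorylated pigment and stops the signal. Of the members, Gnat1, Gnb1 and Gngt1 encode the α, β and γ subunits of transducin, Pde6a, Pde6b and Pde6g the 2 catalytic subunits and the inhibitory subunit of PDE6, Cnga1 and Cngb1 the channel subunits, and Sag rod arrestin. Gnb1 is made in many cell types and is the member least particular to rods.

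The libraries had the make-up of retina. All 6 rod markers, of which 3 are members, were present, and their summed level was 3434 to 3945 CPM (a share of each library's counts, with no division by gene length). Markers of cones, bipolar cells, amacrine cells, ganglion cells and Müller glia were present in every library, at summed levels of 195 to 283, 346 to 374, 240.4 to 254, 182 to 221 and 813 to 963 CPM. Horizontal cell markers summed to at most 28.7 CPM and microglia markers to 3.70 to 4.95 CPM. Markers of neighbouring tissue were uneven, between libraries and between sides. The 12 lens genes summed to 10.7 to 141 CPM in 9 libraries but to 820.4 CPM in right 65 (right retina, mouse 65). The 8 skeletal muscle genes summed to 1.67 to 3.77 CPM in 9 libraries but to 63.4 CPM in left 68. Their part in the results was not tested, and values without mice 65 and 68 are given where a result leads. Of the tested markers, 10 of 10 lens genes were higher on the right by mean (median log2 difference 1.10, 6 with an unadjusted p under 0.05 by limma), as were 5 of 5 fibroblast genes (median 0.31, 3 with such a p) and 5 of 6 pigment epithelium genes (median 0.22, 0 with such a p). None passed after adjustment, and the part of these tissues in the right-minus-left values below was not tested. The 8 pigment epithelium genes summed to 64.7 to 87.8 CPM and the 6 fibroblast genes to 7.60 to 18.0 CPM. Rlbp1 is counted in both the pigment epithelium list and the Müller glia list. The labels also report damage to a raw file of the right retina of mouse 64. One CPM stood for about 89.2 to 113 counts, read from the spacing of the low values, so that the members rested on 11500 to 252000 implied counts per library and counting error was at most 0.933% of a value.

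The members were among the most abundant transcripts of the retina. Together they made up 6461 to 7118 CPM per library (median 6682), or 1.98% to 2.14% of the CPM of all listed genes. Gnat1 alone gave 32.9% of the members' sum and stood 8th by mean CPM among the listed genes, Sag 10th, Gnb1 11th, Pde6a 13th and Pde6b 19th. Cnga1, the least abundant member, stood 266th. The listed genes summed to 321663 to 346698 CPM per library, so the rest of each library enters neither ranks nor shares. Per kilobase of the longest coding transcript the order was Gnat1 with 953 ± 39.5 CPM per kb (SD over 10 libraries, as for the levels that follow), Sag 671 ± 65.3, Pde6g 361 ± 42.8, Gnb1 306 ± 19.8, Pde6b 236 ± 16.1, Gngt1 229 ± 24.1, Pde6a 178 ± 5.50, Cnga1 47.7 ± 1.46 and Cngb1 32.1 ± 1.71. Every neighbouring pair kept its order in 10 of 10 libraries except Pde6b and Gngt1, which kept it in 7. The channel subunits were thus the rarest messages per length and Gnat1 the most abundant. The order in between depended on the gene model. Over the union of all annotated exons, which includes retained introns, Sag (1719 bases as a coding transcript, 8904 as exon union) stood sixth with 129.6 ± 12.6 CPM per kb, and Cngb1 and Cnga1 stood at 21.2 ± 1.13 and 20.6 ± 0.633, while Gnat1 stayed first with 733 ± 30.4.

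Base composition is shown for the 2 smallest proteins of the cascade, because their messages varied most between libraries and have the lowest and the highest GC content of the 9 over the longest coding transcript. The coding sequences of Gngt1 (chromosome 6, 3993792 to 3997436, plus strand, GRCm38) and Pde6g (chromosome 11, 120447605 to 120453500, minus strand) are given from GENCODE M21 with every G and C in capitals. That of Gngt1 has 74 codons and 43.1% G and C, that of Pde6g 87 codons and 56.4%.
Gngt1: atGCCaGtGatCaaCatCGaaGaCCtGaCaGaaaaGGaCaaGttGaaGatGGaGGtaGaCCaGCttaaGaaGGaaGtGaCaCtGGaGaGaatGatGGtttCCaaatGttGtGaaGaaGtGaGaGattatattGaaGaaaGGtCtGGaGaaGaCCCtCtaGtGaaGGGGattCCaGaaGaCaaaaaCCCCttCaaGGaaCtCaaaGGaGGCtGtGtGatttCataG
Pde6g: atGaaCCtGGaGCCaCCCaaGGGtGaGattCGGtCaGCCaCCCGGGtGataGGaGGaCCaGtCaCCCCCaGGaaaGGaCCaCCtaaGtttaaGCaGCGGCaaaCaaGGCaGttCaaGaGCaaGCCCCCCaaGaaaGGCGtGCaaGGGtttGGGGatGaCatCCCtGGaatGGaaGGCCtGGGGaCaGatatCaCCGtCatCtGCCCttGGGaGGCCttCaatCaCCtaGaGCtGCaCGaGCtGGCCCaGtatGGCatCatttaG
Over the longest coding transcript the members ranged in GC content from 35.8% (Gngt1) through Cnga1 (42.6%), Gnb1 (48.1%), Pde6a (49.3%), Pde6b (49.7%), Sag (52.6%), Cngb1 (53.9%) and Gnat1 (54.0%) to Pde6g (55.8%).

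Promoters are shown for Sag, Pde6b and Cngb1, as examples of the windows with a match to a photoreceptor motif. Of the 9 members 6 had an entry in the RefSeq promoter table (GRCm38.p6). The 250 bases before the start are printed on the gene's strand with 2 motifs in capitals, TAATCC (either strand, so also GGATTA), the core bound by the photoreceptor factor CRX, and TGCTGA (either strand, so also TCAGCA), a half-site of the rod factor NRL. These motifs do not overlap each other here.
Sag, chr1:87803430-87803679, plus strand: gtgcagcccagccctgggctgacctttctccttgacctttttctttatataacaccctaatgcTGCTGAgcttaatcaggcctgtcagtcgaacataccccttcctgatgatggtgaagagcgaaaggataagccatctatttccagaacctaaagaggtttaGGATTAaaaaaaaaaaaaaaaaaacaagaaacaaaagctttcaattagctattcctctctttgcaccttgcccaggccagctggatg
Pde6b, chr5:108388123-108388372, plus strand: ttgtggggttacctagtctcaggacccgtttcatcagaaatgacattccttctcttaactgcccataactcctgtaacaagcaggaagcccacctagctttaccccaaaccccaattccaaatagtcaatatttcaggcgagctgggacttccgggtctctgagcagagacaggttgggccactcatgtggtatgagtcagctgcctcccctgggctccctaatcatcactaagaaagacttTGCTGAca
Cngb1, chr8:95306586-95306835, minus strand: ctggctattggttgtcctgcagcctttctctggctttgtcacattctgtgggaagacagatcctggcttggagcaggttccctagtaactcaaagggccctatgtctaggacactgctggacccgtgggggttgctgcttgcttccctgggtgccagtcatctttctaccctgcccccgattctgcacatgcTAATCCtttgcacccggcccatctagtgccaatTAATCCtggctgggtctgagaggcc
TAATCC was found in 4 of the 6 members' windows, against 6.25% of all 32851 windows of this length. It began 87 bases before the start in Sag, 58 and 25 bases in Cngb1, 44 bases in Gngt1 and 228 bases in Cnga1. The start is that of RefSeq, which in Gngt1 and Cnga1 lies inside the gene span given here from the deposited table, so these matches do too. TGCTGA was found in 2 of 6, against 16.1% of all windows, 187 bases before the start in Sag and 8 bases in Pde6b. The window of Gnb1 held neither motif. These are matches of letters and not measured binding, and no relation to the levels was tested.

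Transducin came first in abundance. Gnat1 (chromosome 9, 107674474 to 107679712) had CPM values of 2242, 2437, 2161, 2225 and 2136 in left retinas (mice 61, 64, 65, 66 and 68, the order kept below) and of 2129, 2180.3, 2167, 2225 and 2294 in right retinas. The left retina of mouse 64 stood highest and the other 9 libraries lay within 2129 to 2294 CPM. Gnb1 (chromosome 4, 155491361 to 155559269) had values of 962, 972, 907, 852 and 1012 CPM in left retinas and of 923, 911, 1049, 995 and 1028 CPM in right ones, lowest in the left retina of mouse 66. Gngt1, whose product anchors the βγ pair to the disc membrane through its lipid tail, had values of 263, 236, 329, 304 and 264 CPM in left retinas and of 274, 262, 262, 235 and 280.4 CPM in right ones. The left retinas of mice 65 and 66 stood above the rest. In all 3 genes the sides overlapped.

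Of the PDE6 genes, Pde6a (chromosome 18, 61220315 to 61289924) hardly varied. It had values of 782, 854, 838, 820.3 and 806 CPM in left retinas and of 788, 855, 819.7, 798 and 821 CPM in right ones, a spread of 3.08% of the mean over the 10 libraries. Both retinas of mouse 61 were low and both of mouse 64 high. Pde6b (chromosome 5, 108388391 to 108432397), its catalytic partner, had values of 751, 717, 629.5, 611 and 653 CPM in left retinas and of 697, 626, 641, 652 and 638 CPM in right ones. Here both retinas of mouse 61, which had the least Pde6a, were among the 3 highest. Pde6g, the inhibitory subunit that sets the brake on both, was the most variable member, with a spread of 11.9% of the mean. It had values of 382, 376, 282, 269 and 329.8 CPM in left retinas and of 338, 279.7, 324, 327 and 342 CPM in right ones. The highest and the lowest Pde6g values were both in left retinas, so the sides overlapped fully.

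Of the channel genes, Cnga1 varied less than Cngb1. Cnga1 (chromosome 5, 72603696 to 72644275), which forms the pore, had values of 123, 129, 134, 129 and 135 CPM in left retinas and of 128, 132, 131, 127 and 136 CPM in right ones, a spread of 3.07% of the mean. Cngb1 (chromosome 8, 95239045 to 95306585), the modulatory subunit, had values of 196, 206, 182, 205 and 210.0 CPM in left retinas and of 183, 201, 193, 213 and 198 CPM in right ones. The spread of Cngb1 was 5.34% of the mean. Its locus also makes shorter glutamic acid-rich proteins of the rod outer segment, and reads of these forms are not separated in gene totals. Sag (chromosome 1, 87803680 to 87845158) had values of 1366, 1191, 1061, 1076 and 1316 CPM in left retinas and of 1174, 1014, 1089, 1114 and 1139 CPM in right ones. The left retinas of mice 61 and 68 stood highest and the right retina of mouse 64 lowest, and the sides overlapped.

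**Figure D1:**
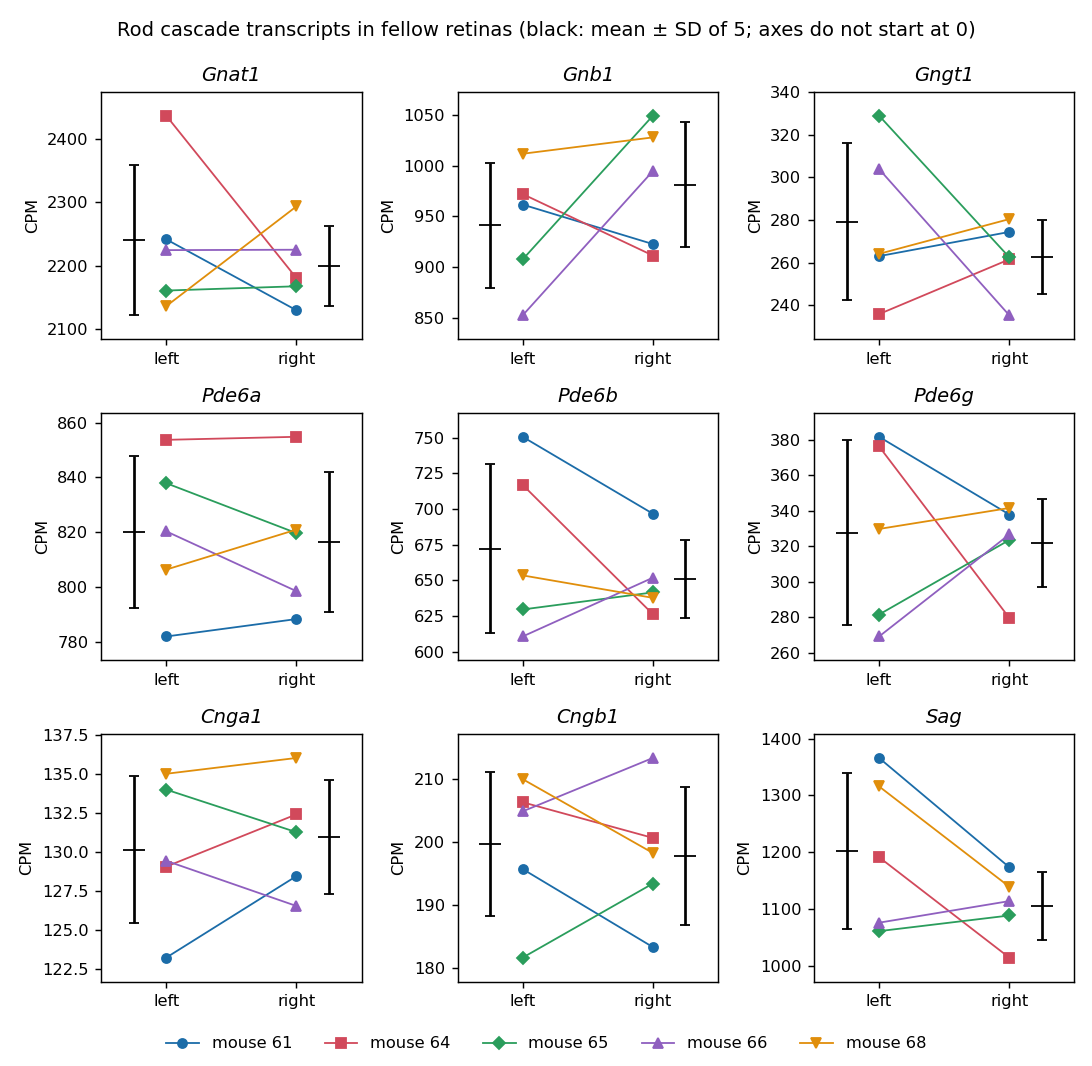
CPM of each member (vertical axes, not starting at 0) in the left and right retina of each mouse, joined by a line; black bars are the mean ± SD of 5 retinas. Lines cross in every panel, Pde6a and Cnga1 lie within 782 to 855 and 123 to 136 CPM, and Pde6g and Gngt1 spread widest.

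No member passed the comparison of right with left retinas. Of the 9, 0 passed limma's test with the mouse as a block and Benjamini-Hochberg adjustment over the 14210 genes that averaged 1 CPM or more, where 0% of all genes passed. An unadjusted p under 0.05 was had by 0 of 9 members and 2.34% of all genes. Sag had the largest difference, with 1202 ± 138 CPM (SD, n = 5) in left and 1106 ± 60.0 CPM (SD, n = 5) in right retinas. On the log2(CPM + 1) scale it was lower on the right by 0.22, 0.23 and 0.21 in mice 61, 64 and 68 and higher by 0.04 and 0.05 in mice 65 and 66, with a mean of -0.11 (SE 0.05, 95% interval -0.23 to 0.0045, limma adjusted p = 0.9996 and unadjusted p = 0.0576). Without mice 65 and 68 it was -0.13 (unadjusted p = 0.0988 by limma). The other members differed by -0.08 (Gngt1) to 0.06 (Gnb1). The 95% interval was -0.13 to 0.08 for Gnat1, -0.06 to 0.18 for Gnb1, -0.25 to 0.09 for Gngt1 and -0.14 to 0.06 for Pde6b. It was -0.08 to 0.07 for Pde6a, -0.21 to 0.18 for Pde6g, -0.06 to 0.08 for Cnga1 and -0.10 to 0.07 for Cngb1. The members' median was -0.01, with 7 of 9 below 0, against a median of 0.00 and 48.9% below 0 over all genes. Ranges of the sides that do not overlap were found for 0 of 9 members and for 0.289% of all genes, and a same direction in 5 of 5 mice for 0 of 9 and 4.79%.

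**Figure D2:**
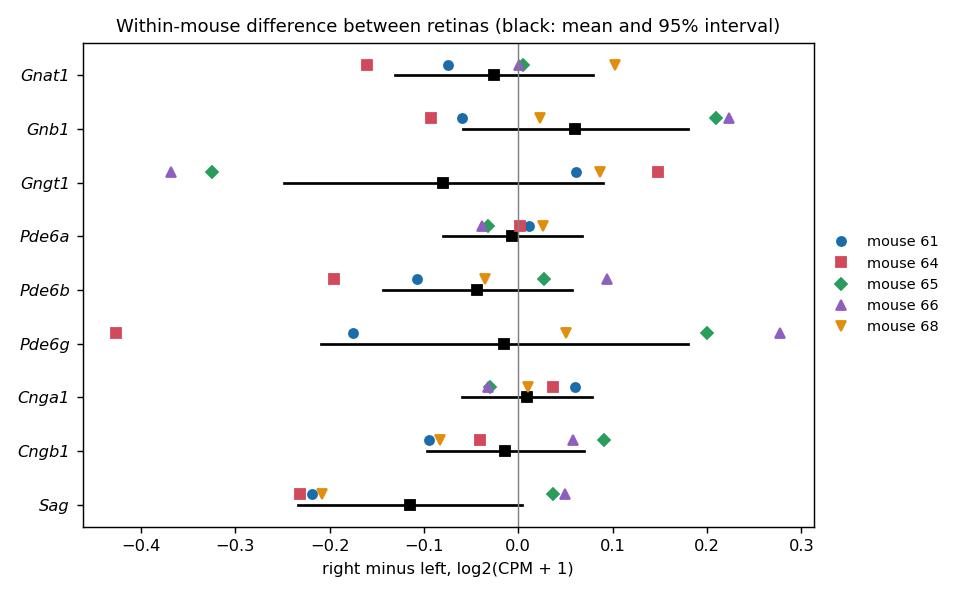
Right minus left on the log2(CPM + 1) scale (horizontal axis) for each member; coloured points are the 5 mice, black squares and bars the limma mean and 95% interval. All 9 intervals include 0, and Pde6g and Gngt1 have mice on both sides of 0, Pde6g from -0.43 to 0.28 and Gngt1 from -0.37 to 0.15.

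Because either eye may have worn the lens, fellow eyes were also compared whichever the side, by the mean square of the 5 differences against that of genes of like level. Again 0 of 9 members passed (0.338% of all genes did). Pde6g and Gngt1 came nearest. In mice 61, 64, 65, 66 and 68 in turn, Pde6g was different on the right by -0.18, -0.43, 0.20, 0.28 and 0.05. Gngt1 was different by 0.06, 0.15, -0.32, -0.37 and 0.09, so that the pair went opposite ways in 4 of 5 mice. By an F-test of the mean square against the trend over all tested genes, their unadjusted p was 0.00606 and 0.00964. Their adjusted p was 0.485 and 0.617. Without mice 65 and 68 the lowest adjusted p of a member was 0.52. These 2 members were the ones with an unadjusted p under 0.05, which 4.71% of all genes had. Of the 393 genes that averaged 100 CPM or more, as all 9 members did, 48 had such a p. Pde6a and Cnga1 were the most alike between fellow eyes, with a root mean square difference of 0.03 and 0.04 against a median of 0.13 over all genes and 0.08 over the 393 genes that averaged 100 CPM or more.

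Between mice, limma's moderated F-test called 0 of 9 members (0.57% of all genes), and an unadjusted p under 0.05 was had by 0 of 9 (13.8% of all genes). The share of a member's sum of squares that lay between mice was 90.6% for Pde6a, 80.1% for Cnga1, 73.2% for Cngb1 and 63.3% for Pde6b, and 30.2% to 38.0% for Gngt1, Gnat1, Gnb1 and Pde6g, against a median of 56.1% over all genes. Pde6a was at 782 and 788 CPM in mouse 61 and at 854 and 855 CPM in mouse 64, but the range of mouse means was 0.12 log2 units and did not pass (adjusted p = 0.569 by limma). Sag had the smallest mouse p of the members (unadjusted 0.0596, adjusted p = 0.378 by limma).

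Across the 10 libraries the members did not all vary together. The 10 libraries come from 5 mice and are not independent, so correlations are descriptions. Of the 36 pairs of members, 20 had a Pearson r above 0, with a median of 0.10 and a range of -0.66 to 0.87. Pde6b, Pde6g and Sag formed the tightest group, with r = 0.87 for Pde6b and Pde6g, 0.77 for Pde6g and Sag and 0.76 for Pde6b and Sag. Gngt1 ran against Pde6g (-0.62) and Cngb1 (-0.62), Cnga1 against Pde6b (-0.66), and the 2 catalytic PDE6 genes against each other (-0.42).

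This pattern moved together with a property of whole libraries. In each library the deviations of all tested genes from their means were regressed on transcript GC content and length. The GC slope was 0.065 and 0.055 log2 units per 10 points of GC content in the left retinas of mice 61 and 64 and lowest, at -0.052, in the left retina of mouse 65. The same left retinas of mice 61 and 64 had the 2 highest Pde6g values and the 2 highest Pde6b values, and that of mouse 65 had the highest Gngt1, whose sequence above is the poorer in G and C. Within mice the slope was lower on the right in mice 61, 64 and 68 (by 0.082, 0.079 and 0.042) and higher in mice 65 and 66 (by 0.066 and 0.057). Pde6b, Cngb1 and Sag had the sign of that difference in 5 of 5 mice and Gnat1, Gnb1 and Pde6g in 4 of 5. Gngt1, Cnga1 and Pde6a had it in 0 of 5. All members with over 50% GC followed the slope in at least 4 mice, and the 2 members under 45% went against it in every mouse. Between these bounds the members were split. Gnb1 (48.1% GC) followed it in 4 of 5 mice, Pde6a (49.3%) in 0 of 5 and Pde6b (49.7%) in 5 of 5. The share of all tested genes that followed the slope was not counted. The slope was itself fitted to the deviations of all tested genes, the members among them. The part of GC content in this was not tested.

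After the values were corrected for GC content and length in each library, a step chosen after seeing the data, the SD of Pde6g on the log2 scale went from 0.17 to 0.12, that of Gngt1 from 0.15 to 0.12 and that of Sag from 0.14 to 0.11. The SD of Pde6a went from 0.04 to 0.07 and that of Gnat1 from 0.06 to 0.07. Over the 9 members the median SD went from 0.094 to 0.077, and over the 14032 genes with a gene model from 0.109 to 0.103. The correlation of Pde6b and Pde6g was then 0.74, that of Pde6b and Sag 0.59 and that of Pde6g and Sag 0.55. That of Gngt1 was -0.57 with Pde6g and -0.24 with Cngb1, that of Cnga1 and Pde6b -0.40 and that of Pde6a and Pde6b -0.35. The correlation of Cnga1 and Pde6a went from 0.51 to 0.79 and was then the highest of all pairs. That of Gnat1 and Pde6a went from 0.38 to 0.78, and that of Gnat1 and Cnga1 from -0.19 to 0.58. That of Cnga1 and Cngb1 went from -0.09 to 0.56, but that of Gnat1 and Pde6g from 0.48 to 0.09. Of the 36 pairs 19 were then above 0, with a median of 0.05. The fellow-eye differences of Pde6g were then -0.04, -0.30, 0.08, 0.20 and 0.10 (unadjusted p = 0.0287 by the fellow-eye test). Those of Gngt1 were 0.01, 0.08, -0.29, -0.32 and 0.04 (unadjusted p = 0.0138 by that test). The root mean square fellow-eye difference of Pde6a went from 0.03 to 0.06 and that of Cngb1 from 0.08 to 0.02. Between mice, Cngb1 and Sag then had an unadjusted p of 0.00652 and 0.0355 by limma's F-test (adjusted 0.158 and 0.260). Sag was then lower on the right in 5 of 5 mice, by 0.14, 0.16, 0.05, 0.02 and 0.19 (mean -0.11, unadjusted p = 0.0163, limma adjusted p = 0.9997). In that fit 400 of 14032 genes had an unadjusted p under 0.05 right against left, against 333 of 14210 before. The share of all genes with a same direction in 5 of 5 mice was not counted after the correction. No member passed in any of the 3 tests.

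**Figure D3:**
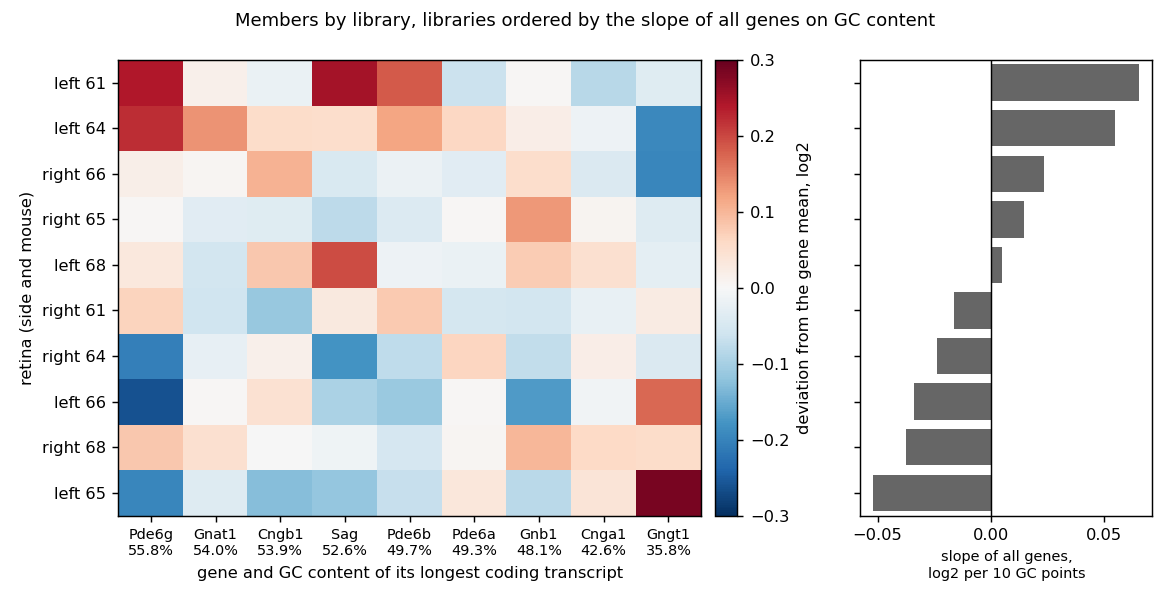
Deviation of each member from its own mean (colour, log2 units) in the 10 retinas, with libraries ordered by the slope of all genes on GC content (bars, log2 units per 10 points) and members by transcript GC content. Pde6g at 55.8% GC is highest in the top pair of rows, and Gngt1 at 35.8% GC is highest in the bottom row.

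Ratios compare the messages of partners within each library. Pde6a to Pde6b, which pair 1 to 1 in the enzyme, stood at 1.24 ± 0.101 by CPM (SD, 10 libraries), from 1.04 in the left retina of mouse 61 to 1.37 in the right retina of mouse 64. Divided by the length of the coding transcript the ratio was 0.758 ± 0.0616, and by the exon union 1.33 ± 0.108, so which of the pair is the more abundant message depends on the gene model. The sum of both to Gnat1 was the most even of the 17 ratios tested between sides, 0.667 ± 0.0213 by CPM, with a range of 0.636 to 0.697. Among the 36 pairs of members, Pde6a to Cnga1, which is not one of the 17, was as even. Its SD was 0.044 on the log2(CPM + 1) scale, against 0.046 for the sum to Gnat1 by log2 CPM. The SD of the sum to Gnat1 lay below that of Pde6a to Pde6b (0.12 log2 units). The 2 are not like measures, as a sum of genes that ran against each other (r = -0.42) varies less than its parts. Pde6g to the sum of both catalytic genes stood at 0.219 ± 0.0219 by CPM, or 0.869 ± 0.0798 per kb.

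Cnga1 to Cngb1 stood at 0.659 ± 0.0428 by CPM and 1.49 ± 0.0967 per kb of coding transcript. Over the exon union the ratio was 0.974 ± 0.0633. The left retina of mouse 65 had the highest ratio by CPM, 0.738, and the right retina of mouse 66 the lowest, 0.593. Gnb1 to Gnat1 stood at 0.433 ± 0.0312, Gngt1 to Gnat1 at 0.122 ± 0.0153, Sag to Gnat1 at 0.521 ± 0.0533 and the summed channel genes to Gnat1 at 0.149 ± 0.00655, all by CPM. Gnat1 message thus exceeded the summed channel messages in every library.

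Each member has a relative that does its work in cones. Gnat1 exceeded Gnat2 by 66.3 ± 8.33-fold (SD, 10 libraries, by CPM, as for the next), Sag exceeded Arr3 by 25.4 ± 1.72-fold and Cnga1 exceeded Cnga3 by 22.0 ± 1.94-fold. Pde6a and Pde6b exceeded Pde6c by 21.5 ± 1.59-fold and 17.4 ± 2.17-fold. Gngt1 exceeded Gngt2 by 18.3 ± 3.75-fold, Cngb1 exceeded Cngb3 by 16.9 ± 1.20-fold, Gnb1 exceeded Gnb3 by 16.4 ± 1.82-fold and Pde6g exceeded Pde6h by 11.6 ± 1.16-fold. The rod gene was more than 9.31-fold above its relative in every library and pair, and the order of the pairs moved with length. Per kb of coding transcript, Pde6g to Pde6h was the largest ratio (76.5 ± 7.65), as the annotated Pde6h transcript has 5940 bases for 83 codons, and Gnat1 to Gnat2 was 58.5 ± 7.35. Gnb3 is also made by ON bipolar cells, so its ratio is not one of rods to cones alone.

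**Figure D4:**
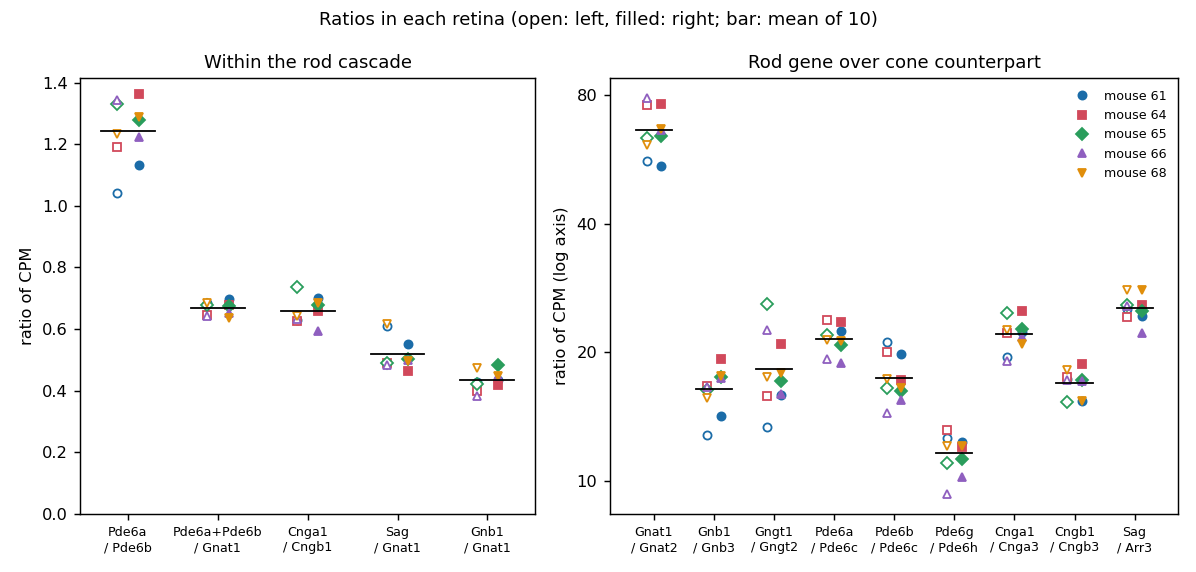
Ratios of CPM in each retina, open symbols left and filled symbols right, with a bar at the mean of 10; the right panel has a log axis. The summed Pde6a and Pde6b to Gnat1 stay within 0.636 to 0.697, and rod genes exceed their cone counterparts from 9.31-fold for Pde6g to Pde6h up to 78.7-fold for Gnat1 to Gnat2.

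Of the 17 ratios, 0 passed between sides in an exact two-sided sign-flip test, which with 5 pairs cannot give a p below 0.0625 and so cannot reach 0.05. One ratio reached that smallest value. Gnb1 to Gnb3 was 15.6 ± 1.61 in left and 17.2 ± 1.85 in right retinas (SD, n = 5 each) and higher on the right in 5 of 5 mice, by 0.14, 0.21, 0.10, 0.06 and 0.17 log2 units (mean 0.13, SE 0.03, exact p = 0.0625, adjusted 0.911 over the 17). Without mice 65 and 68 the mean was 0.14, with 3 of 3 mice higher on the right (exact p = 0.25, the smallest that 3 pairs allow. The other 16 had an exact p of 0.25 to 1. Pde6a to Pde6b differed by 0.04 (SE 0.06), the summed pair to Gnat1 by 0.00 (SE 0.03) and Cnga1 to Cngb1 by 0.02 (SE 0.05).

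Genes related to the members by function, in rods or in cones, were counted in the same tests. Of the 8 cone counterparts, 11 shutoff and calcium feedback genes, 9 genes for the folding, lipid processing and transport of transducin and PDE6, and 8 disc genes, 0 passed right against left, between fellow eyes or between mice. Their median right-minus-left differences were -0.01 in each list, against 0.00 over all genes. Among shutoff genes Pdc, which binds transducin βγ, was the most abundant (781 CPM), followed by the pigment kinase gene Grk1 (571 CPM). Pdc was highest in the left retina of mouse 65 (1005 CPM), and lowest in the right retina of mouse 66 (629 CPM), the same libraries as Gngt1, and its transcript has 37.8% GC. Among disc genes Rp1 (1274 CPM) and the rim protein gene Prph2 (808 CPM) led. Prph2 (54.1% GC) was highest in left 61 (939 CPM) and lowest in left 66 (692 CPM), the same libraries as Pde6b and Pde6g. Rp1 (39.6% GC) was highest in right 61 (1382 CPM) and lowest in left 68 (1196 CPM). Tulp1 (216 CPM) and Unc119 (186 CPM), both of transport to the outer segment, led their list. Tulp1 (60.5% GC) was highest in left 65 (232 CPM) and lowest in right 66 (202 CPM), the same libraries as Gngt1. Unc119 (59.7% GC) was highest in left 61 (225 CPM) and lowest in left 66 (158 CPM). Gene order by GC content was thus not shared by all of these genes. Gnb3 (59.3 CPM) and Arr3 (45.6 CPM) led the cone counterparts.

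Of the 11 photoreceptor transcription factors, 2 passed between mice (0.57% of all genes did), 0 between fellow eyes (0.338%) and 0 between sides (0%). Nr2e3, which represses cone genes in rods, read 122 CPM left and 105 CPM right for mouse 61 and 117 and 132 CPM for mouse 65. For mice 64, 66 and 68 it read 211 and 197, 199 and 178, and 189 and 160.4 CPM (adjusted p = 0.00433 by limma's F-test). Samd7 was lowest for mouse 66, with 41.7 and 43.0 CPM, and highest for mouse 68, with 56.4 and 58.2 CPM (adjusted p = 0.0221 by limma's F-test).

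The genes most like the members' mean profile over the 10 libraries were Ap2a2 (Pearson r = 0.96), Slc26a6 (0.93), Dynlt1f, Sumf2, Klf13 and Adipor1 (each 0.92), Gpn2, Sec23b and Tvp23a (each 0.91) and L3mbtl2 (0.90). The least like were Nap1l1 (-0.96), Eapp and Hnrnpdl (each -0.94), Trim33 (-0.93) and Srsf10 (-0.93). Both ends were picked as extremes of all tested genes over 10 libraries that are not independent. Gpn2, Dynlt1f and Sumf2 averaged 1.28, 1.59 and 2.12 CPM, near the filter of 1 CPM. The members themselves ran from 0.91 for Pde6g to -0.40 for Gngt1, though each is part of the mean. The median GC content was 54.8% for the 100 most like genes, 45.1% for the 100 least like and 49.0% for all tested genes.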

How the data were processed

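Values are CPM (a share of counts) as deposited by the authors, to which 0.0001 had been added. The unit was read from the values. The submitters' processing notes name STAR, Partek and GRCm38 (mm10). For their versions, the counting rule and any gene filter: not given in the sources used here. After taking off 0.0001, 90.9% to 91.8% of low values were whole multiples of 1 step per library (tolerance 0.1), too few for a count test. Log2(CPM + 1) was tested with limma 3.58.1 (R 4.3.3) for 14210 genes averaging 1 CPM or more, with the mouse as a block, variances following the expression trend and a threshold of 0.05. Fellow retinas of 1 number come from the same animal, and their deviations correlated across genes at 0.143 to 0.607. Symbols matched GENCODE M21 for 25272 of 25905 genes, of which 25101 had the deposited end minus 1 base, which is printed. Lengths and GC content are of the longest coding transcript. Named beside the members are genes of 5 related lists that pass a test, or the 2 of highest CPM where none passes, and the 10 most and 5 least like genes, unnamed predicted and sex-linked genes passed over. The rule also covers the marker lists, of which only sums are given, though 9 lens and 3 muscle genes passed between fellow eyes, and 1 blood gene and Nr2e3 between mice. A further gene of the cascade is not reported here. The members and lists were chosen with earlier results of these data known. The correction for GC content and length (a quadratic per library) and the exon-union length were added after seeing the data. Intervals are 95%. They and the p-values of right against left rest on the spread of the differences between these mice. For each gene limma draws that spread towards the trend of all tested genes, so it is not the gene's own spread alone. The p-values of the ratios rest on the differences of these mice alone. The p-values of the fellow-eye test set a gene against the trend of all tested genes. Those between mice set mouse means against the spread between fellow eyes, drawn towards that trend in the same way.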

Additional observations from a re-analysis of the deposited data

Results flagged for a closer look

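Of 52 sets of 5 retinas of 1 side, 18 for the levels of the members and 34 for their ratios, 3 had a library that stood apart from the other 4 by more than 0.71 of the set's range. Chance gives about 1 in 20. The ratio of Pde6g to the summed Pde6a and Pde6b was 0.189 in the right retina of mouse 64, and the next of the right retinas was at 0.222. This is the library with the damaged raw file, and the part of that damage was not tested. Among the left retinas that of mouse 66 was at 0.188 and that of mouse 65 at 0.192, so the value stands apart on its own side only. The ratio of Cnga1 to Cngb1 was 0.738 in the left retina of mouse 65, with the next left retina at 0.643. The ratio of Gnb1 to Gnb3 was 12.8 in the left retina of mouse 61, with the next at 15.7. No single member's level stood apart in this way on either side.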

How the results depend on the processing

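The count of members called stayed at 0 in each of the 3 tests under every alternative run: another pseudocount, filter or scaling, no intensity trend, leaving out each mouse or mice 65 and 68, no replicate block (right against left only), and the GC and length correction. The fit with no replicate block, which ignores the pairing by mouse, also gave 0 of 14210 genes between sides. Sag, Gngt1 and Pde6b stayed lower and Gnb1 higher on the right in each of these fits, but their size rested on single mice. Gngt1 was -0.0181 without mouse 65, -0.0073 without mouse 66, -0.1364 without mouse 64 and -0.1208 without mouse 68. Pde6b was -0.0053 without mouse 64, -0.0272 without mouse 61 and -0.0776 without mouse 66. Gnb1 was 0.0233 without mouse 65, 0.0199 without mouse 66 and 0.0989 without mouse 64. Sag ranged from -0.1554 to -0.0849 with a mouse left out. The unadjusted p of Sag ran from 0.0163 to 0.201. Between fellow eyes 48 genes passed, and 19 with a mean of at least 5 CPM, 8 without the trend, 23 to 54 with a mouse left out and 4 without mice 65 and 68. Between mice 81 passed, and 36 without the trend, 23 to 88 with a mouse left out, 41 without mice 65 and 68 and 154 after the GC and length correction with the replicate block. The causes were not tested. Differences near 0 changed sign: Pde6a with CPM rescaled to the listed genes (0.0064), and Pde6g (0.0040) and Cnga1 (-0.0079) after the GC and length correction. With a mouse left out the right-minus-left range was -0.0574 to 0.0084 for Gnat1, -0.0142 to 0.0019 for Pde6a, -0.0878 to 0.0883 for Pde6g, -0.0036 to 0.0194 for Cnga1 and -0.0396 to 0.0065 for Cngb1. Ratios ranged likewise from -0.0029 to 0.0796 (Pde6a to Pde6b), -0.0537 to 0.0969 (Pde6g to the catalytic pair), -0.0102 to 0.0587 (Cnga1 to Cngb1), -0.1452 to 0.0246 (Gngt1 to Gnat1), -0.0167 to 0.0282 (the catalytic pair to Gnat1) and -0.0118 to 0.0629 (the channel genes to Gnat1). Over cone counterparts they ranged from -0.0676 to 0.0248 (Gnat1), -0.2039 to 0.0476 (Gngt1), -0.0327 to 0.0345 (Pde6g) and -0.0788 to 0.0239 (Cngb1). Without mice 65 and 68 the sign changed for Pde6g to the catalytic pair (-0.0712), Gngt1 to Gnat1 (0.0251), Gngt1 to Gngt2 (0.0528) and Pde6g to Pde6h (-0.0112), and with a pseudocount for Pde6g to Pde6h (-2e-04).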
